A study of Mus musculus with 6 samples.

Results

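The proteasome genes of mouse skeletal muscle were compared between FLExDUX4 mice and their wild-type (WT) littermates. Members were the mouse genes whose symbol begins with Psm, one letter from a to f and a digit, with annotated pseudogenes left out, which gave 46 of the 52550 mouse genes in the deposited table. Of these, 43 had enough counts to be compared, Psma8 and Psmb11 had 0 counts in both genotypes, and Psme2b had 1 count in FLExDUX4 mice and 5 in WT mice. Psmc3ip fits the pattern of names but encodes a meiotic recombination factor, not a subunit. It is counted among the 43 in every value over the members. FLExDUX4 mice carry a human DUX4 transgene, inverted between lox sites, and these animals have no Cre driver, so that DUX4 RNA comes from leaky expression alone. The labels give 3 male mice of each genotype, 13 weeks old, and quadriceps, while the study's methods give triceps and a younger age. No treatment is named for either genotype. The transgene itself was not analysed here, so that the genotype labels were not checked by it.

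The proteasome is the large protease that degrades proteins tagged with ubiquitin. Its 20S core is a barrel of alpha rings, which gate the entrance, and beta rings, which hold the catalytic sites, while the 19S regulatory particle recognizes ubiquitin, removes it and unfolds the substrate with a ring of ATPases. Under interferon, and in leukocytes, the catalytic beta subunits are replaced by inducible ones, which makes the immunoproteasome, and the PA28 activator encoded by Psme1 and Psme2 can cap the core. In skeletal muscle the system carries out much of the breakdown of contractile proteins during atrophy.

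RNA was counted by QuantSeq, an assay of the 3′ ends of polyadenylated RNA in which the length of a transcript does not enter its count. The columns of the deposited table that were used give 1 count total per gene and genotype, summed by the authors. For FLExDUX4 mice these came to 13110125 gene counts and for WT mice to 18367364. Members took 0.342% of these counts in FLExDUX4 mice and 0.345% in WT mice. Because only totals were used, there is no replicate check on any difference, a single mouse can decide it, and no test was run. Levels are in CPM (counts scaled to a common library size) after TMM scaling, and differences are log2 ratios of FLExDUX4 to WT with a 95% Clopper-Pearson interval that covers counting error only. The ratios are relative to the typical gene, since the median over the 13396 genes compared was -0.001, and scaling to the spike-in RNAs in place of TMM lowered every ratio by the same amount and took that median to -0.28. In bulk muscle, fewer cells of a type and less RNA per cell cannot be told apart. Skeletal muscle fibre markers were abundant in both genotypes, with 8 of 8 detected and a summed level of 123370 CPM in FLExDUX4 mice and 124250 CPM in WT mice.

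Most proteasome genes had nearly the same level in both genotypes. Of the 43 members compared, 21 had a log2 ratio above 0, which is 48.8% of them, beside 49.9% of all genes compared. The median log2 ratio was -0.01 over the members, and it was -0.29 with spike-in scaling, beside -0.28 over all genes. A ratio at or beyond 0.5 in either direction was reached by 3 members, or 6.98%, beside 31.4% of all genes. All 3 were lower in FLExDUX4 mice (15.7% of all genes were lower by that much), and they were Psmb8, Psme2 and Psmc4. Psmb9 lay just inside, with a ratio of 0.496. Among the 34 members with at least 500 counts over both genotypes, Psmc4 was the 1 gene past 0.5, or 2.94%, beside 4.33% of the 4577 genes with that many counts. The middle of the members, from the lower to the upper quartile, ran from -0.09 to 0.13, and that of the genes with at least 500 counts from -0.14 to 0.14. The counting interval lay above 0 for 10 members, or 23.3%, beside 20.5% of all genes, and below 0 for 9 members, or 20.9%, beside 20.6%.

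**Figure D1:**
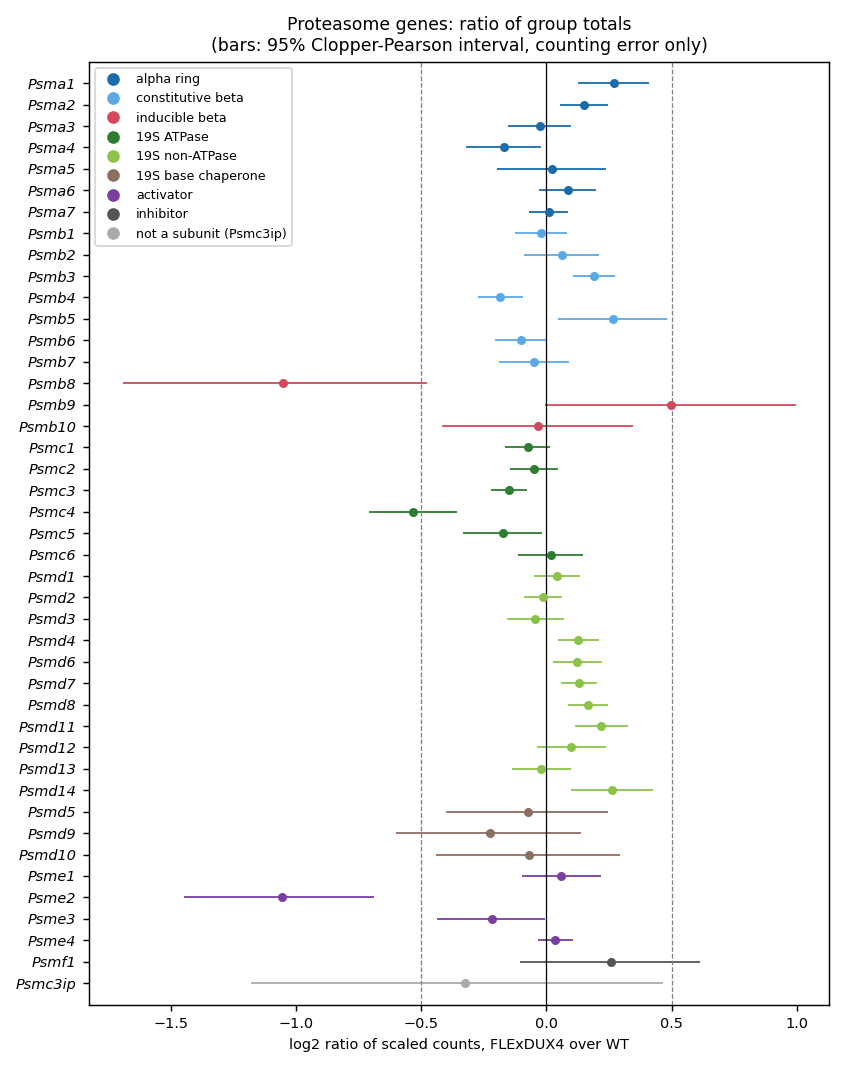
Log2 ratio of FLExDUX4 to WT for each of the 43 members compared, in order of role, with 95% Clopper-Pearson intervals (counting error only) and dashed lines at 0.5 in each direction. Psmb8, Psme2 and Psmc4 lie past -0.5, Psmb9 lies just under 0.5, and the other points lie nearer to 0. With spike-in scaling the whole plot moves down so that 1 member stays above 0, beside 3376 of all 13396 genes compared.

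Promoter sequence is shown for the members past 0.5 (Psme2, Psmc4 and Psmb8) and for Psmd4, whose window holds matches to 3 of the motifs searched. Windows of 250 bases before the RefSeq start (GRCm38.p6) were found for 37 of the 43 members, and both strands were searched for 5 motifs. Matches are in capitals, and the windows of Psme2 (chr14:55591102-55591351, minus strand) and Psmc4 (chr7:28050093-28050342, minus strand) hold none.
Psme2: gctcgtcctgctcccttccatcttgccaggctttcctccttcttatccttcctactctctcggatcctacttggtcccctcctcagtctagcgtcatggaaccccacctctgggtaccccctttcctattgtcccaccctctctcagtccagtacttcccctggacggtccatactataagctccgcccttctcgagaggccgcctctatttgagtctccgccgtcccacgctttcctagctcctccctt
Psmc4: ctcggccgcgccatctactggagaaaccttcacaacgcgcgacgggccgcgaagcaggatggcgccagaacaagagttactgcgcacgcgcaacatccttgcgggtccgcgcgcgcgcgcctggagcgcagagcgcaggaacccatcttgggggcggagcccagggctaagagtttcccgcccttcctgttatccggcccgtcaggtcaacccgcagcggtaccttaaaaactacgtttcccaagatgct
The window of Psmd4 (chr3:95042615-95042864, minus strand), a ubiquitin receptor of the 19S particle, holds an ETS core on both strands, a CCAAT box and an interferon-stimulated response element core.
Psmd4: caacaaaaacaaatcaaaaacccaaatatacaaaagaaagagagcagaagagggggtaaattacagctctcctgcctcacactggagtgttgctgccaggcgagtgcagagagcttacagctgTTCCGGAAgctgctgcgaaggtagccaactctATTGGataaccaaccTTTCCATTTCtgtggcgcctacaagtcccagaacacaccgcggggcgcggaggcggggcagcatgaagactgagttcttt
In Psmb8 (chr17:34198090-34198114, plus strand) a match to the gamma-activated site began 97 bases before the RefSeq start. That RefSeq start lies downstream of the gene start in the deposited table (34197721), so that the sequence shown falls inside the gene as that table gives it.
Psmb8: ctccgctgTTCCCAGAAgatgcccc

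The ETS core (CCGGAA) was found before 17 of the 37 members, or 45.9%, beside 24.9% of the 9606 genes compared that have a window and 12.03% of all 32851 windows. The antioxidant response element core (TGACNNNGC), the kind of site that the proteasome regulator NRF1 binds, was found before 5 members (Psmb5, Psmb6, Psmc6, Psmd9 and Psmd12), or 13.5%, beside 14.2% of the genes compared and 10.2% of all windows. The CCAAT box (CCAAT) was found before 14 members, or 37.8%, beside 39.9% and 33.8%. The gamma-activated site (TTCNNNGAA) was found before 1 member, Psmb8, or 2.70%, beside 7.03% and 7.02%. The interferon-stimulated response element core (GAAANNGAAA) was found before 3 members (Psmb3, Psmd4 and Psmd9), or 8.11%, beside 3.03% and 2.98%. The motifs can overlap each other, and a match is only a run of letters.

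The alpha ring subunits, which form the outer rings of the core, had log2 ratios from -0.17 to 0.27, and none was past 0.5. Psma7 had the most counts of the ring, with 2337 in FLExDUX4 mice and 3324 in WT mice, or 180.1 and 179.1 CPM, and a log2 ratio of 0.01 (interval -0.07 to 0.08). The highest ratio was that of Psma1, with 762 and 905 counts, or 58.7 and 48.8 CPM, giving 0.27 on the log2 scale (interval 0.13 to 0.41), or -0.01 with spike-in scaling. Psma4 had the lowest, with 601 and 968 counts, or 46.3 and 52.2 CPM, and a ratio of -0.17 (interval -0.32 to -0.02). Of the 7 genes 5 were above 0 with TMM and 0 with spike-in scaling, and the median was 0.02. Psma2 was at 121.9 and 109.9 CPM, with a ratio of 0.15 (interval 0.05 to 0.25), and Psma3, Psma5 and Psma6 had intervals that held 0.

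Within the ring the counted levels differed far more from gene to gene than between genotypes, although each subunit protein enters the particle in equal number. How well counts compare between different genes was not tested. The order of levels in CPM was Psma7, Psma2, Psma6, Psma3, Psma1, Psma4 and Psma5, from 180.1 down to 23.4 CPM in FLExDUX4 mice and from 179.1 down to 23.0 CPM in WT mice. In this ring Psma1 and Psma4 exchanged places between the genotypes. In the constitutive beta ring Psmb3 and Psmb4 did so. In WT mice the counting intervals of both pairs overlapped, so that their order was not resolved there, whereas in FLExDUX4 mice they were apart. In the 2 classes of 19S subunits the order was the same in both genotypes. Neighbours whose counting intervals overlapped in both genotypes were Psmd8 with Psmd4 and Psmd3 with Psmd13, and other neighbours overlapped in a single genotype, such as Psmd7 with Psmd2 in WT mice and Psmb6 with Psmb1 in FLExDUX4 mice. Over the 14 core genes the highest level was 7.71 times the lowest in FLExDUX4 mice and 8.72 times in WT mice. Across the 43 members the levels of the genotypes had a Spearman rho of 0.991, as a description of genes that share the same libraries.

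**Figure D2:**
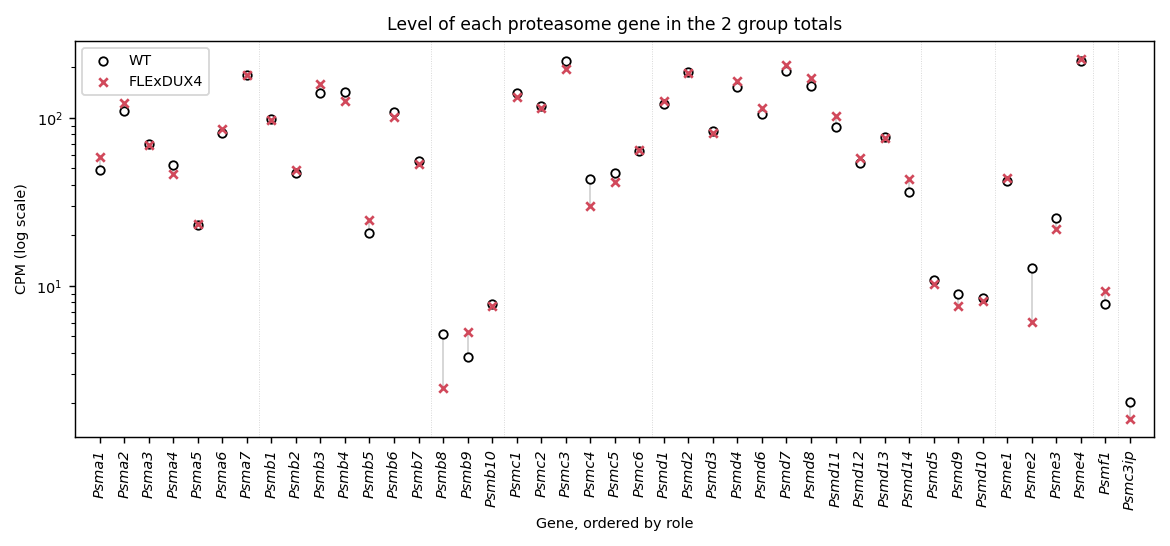
Level of each member in CPM (log scale) for WT (open circles) and FLExDUX4 (crosses), in order of role, with a grey line between the 2 genotypes. The symbols nearly coincide for most genes, and the longest lines are those of Psmb8, Psme2, Psmb9 and Psmc4.

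Among the constitutive beta subunits, Psmb5, Psmb6 and Psmb7 carry the catalytic sites. Psmb5, the chymotrypsin-like subunit, had the fewest counts of the 7, with 320 in FLExDUX4 mice and 381 in WT mice, or 24.7 and 20.5 CPM, and the highest ratio, 0.27 (interval 0.05 to 0.48), or -0.01 with spike-in scaling. Adding its annotated pseudogene, with 1 and 12 counts, left that ratio within its interval. Psmb6, the caspase-like subunit, had 1317 and 2024 counts, or 101.5 and 109.1 CPM, and a ratio of -0.10 (interval -0.20 to -0.003). Psmb7, the trypsin-like subunit, had 690 and 1021 counts, or 53.2 and 55.0 CPM, and a ratio of -0.05 (interval -0.19 to 0.09). The noncatalytic Psmb3 and Psmb4 led the ring in level and went in opposite directions. Psmb3 had 159.4 and 139.8 CPM and a ratio of 0.19 (interval 0.11 to 0.27), but -0.09 when spike-ins set the scale. Psmb4 had 125.3 and 142.4 CPM and the lowest ratio of the ring, -0.18 (interval -0.27 to -0.09). Psmb1 and Psmb2 had intervals that held 0, and the median of the 7 genes was -0.02.

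The regulatory particle had nearly the same median log2 ratio as the core, 0.018 over 17 genes against 0.015 over 14. Core subunits took 38.5% (interval 38.0 to 39.0) of the counts of core and 19S subunits together in FLExDUX4 mice and 38.5% (interval 38.1 to 38.9) in WT mice. This share is taken within a library, so that scaling between genotypes cannot move it. Inside the 19S particle the ATPases and the other subunits lay on different sides of 0. The 6 ATPases had a median of -0.11 and 5 were below 0, whereas the 11 non-ATPases had a median of 0.12 and 8 were above 0. With spike-in scaling the medians were -0.39 and -0.15. Every one of the 17 genes was then below 0, beside 4085 of the 4577 genes with at least 500 counts. ATPases took 30.3% (interval 29.7 to 30.8) of the 19S counts in FLExDUX4 mice and 33.5% (interval 33.0 to 33.98) in WT mice, and these counting intervals did not overlap. Such intervals are narrow where counts are many. Of the 4577 genes with at least 500 counts, 1057 had a ratio whose counting interval lay above 0, and 1051 below 0.

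Psmc4, an ATPase of the base ring (ENSMUSG00000030603, chromosome 7 of GRCm38, 28041707 to 28050101), stood apart in this class. It had 389 counts in FLExDUX4 mice and 805 in WT mice, or 30.0 and 43.4 CPM. Its log2 ratio was -0.53 (interval -0.71 to -0.36), a level 0.692 times that of WT mice. Psmc3, the ATPase with the most counts, had 2549 and 4043 counts, or 196.5 and 217.8 CPM, and a ratio of -0.15 (interval -0.22 to -0.08). Psmc5 had 41.8 and 47.1 CPM and a ratio of -0.17 (interval -0.33 to -0.02). Psmc1, Psmc2 and Psmc6 had ratios of -0.08, -0.05 and 0.02, with intervals that held 0.

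The 11 non-ATPase subunits had log2 ratios from -0.04 to 0.26 with TMM. Psmd14, the deubiquitinase of the lid, had 565 counts in FLExDUX4 mice and 674 in WT mice, or 43.5 and 36.3 CPM, and the highest ratio of the class, 0.26 (interval 0.10 to 0.43). Psmd4, the ubiquitin receptor whose promoter is shown above, had 166.1 and 152.1 CPM and a ratio of 0.13 (interval 0.05 to 0.21). Psmd2, a scaffold of the base, had 185.8 and 187.7 CPM and a ratio of -0.01 (interval -0.09 to 0.06). Among lid subunits, Psmd11 had 102.2 and 87.8 CPM and a ratio of 0.22 (interval 0.11 to 0.32), and Psmd8 had 172.6 and 153.8 CPM and a ratio of 0.17 (interval 0.09 to 0.25). Psmd7 had the most counts of the class, 2692 and 3521, and a ratio of 0.13 (interval 0.06 to 0.20). With spike-in scaling each of these genes was below 0, with Psmd14 at -0.01 and Psmd11 at -0.06. Psmd3 had the lowest ratio of the class, -0.04 (interval -0.16 to 0.07), and Psmd1, Psmd12 and Psmd13 also had intervals that held 0. Psmd6 had a ratio of 0.12 (interval 0.03 to 0.22).

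The inducible beta subunits had few counts, and they differed from one another. Psmb8, which replaces Psmb5 (ENSMUSG00000024338, chromosome 17, 34197721 to 34201454), had a total of 32 counts in FLExDUX4 mice and of 96 in WT mice, or 2.47 and 5.17 CPM, and a log2 ratio of -1.05 (interval -1.69 to -0.48). Psmb9, which replaces Psmb6, had 69 and 70 counts, or 5.32 and 3.77 CPM, and a ratio of 0.50 (interval -0.005 to 0.996). Psmb10, which replaces Psmb7, had 99 and 145 counts, or 7.63 and 7.81 CPM, and a ratio of -0.03 (interval -0.42 to 0.34). Thus of 3 inducible genes 1 was lower past 0.5 and 0 were higher past it, beside 15.7% of all genes in each direction.

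Shares within each catalytic pair give the same view without any scaling. Psmb8 took 9.09% (interval 6.30 to 12.6) of the counts of Psmb8 and Psmb5 in FLExDUX4 mice and 20.1% (interval 16.6 to 24.0) in WT mice. Psmb9 took 4.98% (interval 3.89 to 6.26) of its pair with Psmb6 in FLExDUX4 mice and 3.34% (interval 2.62 to 4.205) in WT mice, with overlapping intervals. Psmb10 took 12.5% (interval 10.3 to 15.1) and 12.4% (interval 10.6 to 14.5) of its pair with Psmb7. Over the 3 pairs together the inducible share was 7.91% (interval 6.89 to 9.04) in FLExDUX4 mice and 8.32% (interval 7.46 to 9.25) in WT mice, with overlapping intervals. Psmb6 and Psmb9 gave the most counts to that sum, and without them the inducible share was 11.5% in FLExDUX4 mice and 14.7% in WT mice.

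**Figure D3:**
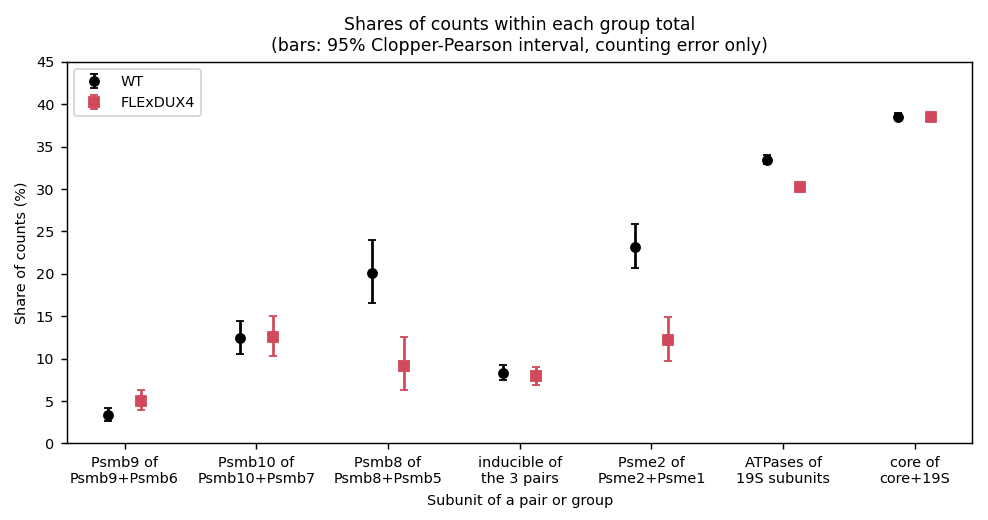
Percent of counts that fell on the first-named gene or group within each group total, for WT (black circles) and FLExDUX4 (red squares), with 95% Clopper-Pearson intervals (counting error only). The intervals are apart for Psmb8, Psme2 and the 19S ATPases and overlap for Psmb9, Psmb10, the 3 pairs together and the core.

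Of the activators, Psme2 differed from its partner Psme1. Psme2, the beta subunit of PA28 (ENSMUSG00000079197, chromosome 14, 55587441 to 55591113), had a total of 79 counts in FLExDUX4 mice and of 236 in WT mice, or 6.09 and 12.7 CPM, and a log2 ratio of -1.06 (interval -1.45 to -0.69). Psme1, the alpha subunit (chromosome 14, 55578123 to 55581529), had 569 and 781 counts, or 43.9 and 42.1 CPM, and a ratio of 0.06 (interval -0.10 to 0.22). Psme2 took 12.2% (interval 9.77 to 15.0) of the counts of the pair in FLExDUX4 mice and 23.2% (interval 20.6 to 25.9) in WT mice. Reads of Psme2 could have been split with its copy Psme2b, which had a ratio of -1.36 (interval -7.37 to 1.35). The nuclear activator Psme3 had 21.7 and 25.3 CPM and a ratio of -0.22 (interval -0.44 to -0.005). Psme4, which encodes PA200, had the most counts of all members, 2919 and 4073, or 225.0 and 219.5 CPM, and a ratio of 0.04 (interval -0.03 to 0.10).

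**Figure D4:**
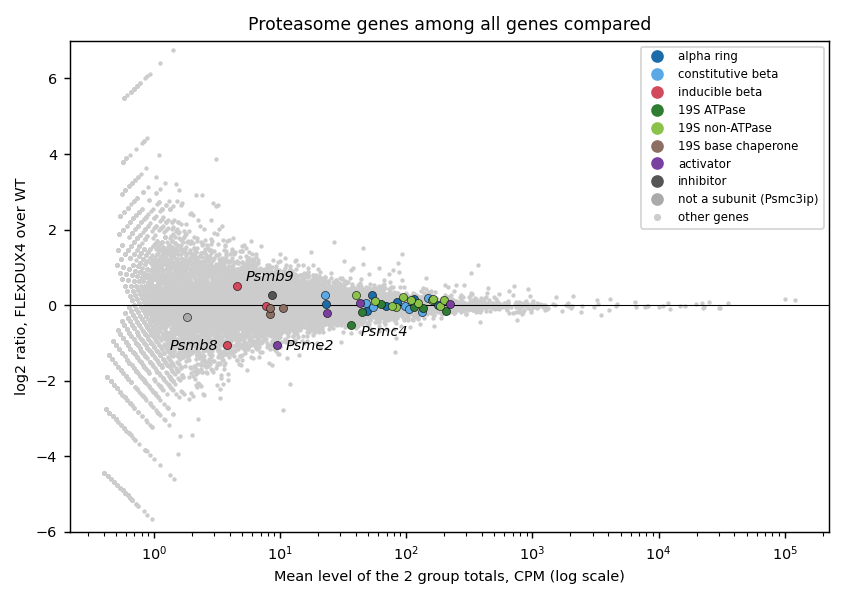
Log2 ratio of FLExDUX4 to WT against the mean level of the 2 group totals in CPM (log scale), with the 43 members colored by role over all 13396 genes compared in grey. Grey points spread widely at low levels, where Psmb8, Psmb9 and Psme2 lie, and narrowly at the levels of the core and 19S subunits, where Psmc4 lies low.

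The chaperones and the inhibitor were within 0.5 of 0 in either direction, with intervals that held 0. Psmd5, Psmd9 and Psmd10, which help to assemble the 19S base, had ratios of -0.07, -0.23 and -0.07, with levels from 7.63 to 10.9 CPM. Psmf1, which encodes the inhibitor PI31, had 121 and 145 counts and a ratio of 0.26 (interval -0.10 to 0.61). Psmc3ip had 21 and 38 counts and a ratio of -0.32 (interval -1.18 to 0.47).

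Genes that act with the proteasome were taken from fixed lists. Of 7 core assembly chaperones and subunits with other names, 3 were above 0 and 4 below, with a median of -0.01 (log2). Psmg1, which helps to form the alpha ring, had 147 and 132 counts and a ratio of 0.67 (interval 0.32 to 1.02). Pomp, the maturation factor of the core, had 801 and 1472 counts and a ratio of -0.36 (interval -0.49 to -0.24). Adrm1, a further ubiquitin receptor, had a ratio of 0.35 (interval 0.09 to 0.62), and Sem1 had 132.0 and 133.0 CPM and a ratio of -0.01 (interval -0.10 to 0.08). None of the 7 was at or below -0.5, and Psmg1 alone was at or above 0.5 (15.7% of all genes were).

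Regulators of the subunit genes were all above 0 with TMM and all below 0 with spike-in scaling, with medians of 0.16 and -0.12. Nfe2l1, which encodes NRF1, had 3168 and 4139 counts and a ratio of 0.13 (interval 0.06 to 0.20). Nfe2l2, which encodes the related factor NRF2, had 751 and 914 counts and the highest ratio of the list, 0.23 (interval 0.09 to 0.37). Ddi2, the protease that activates NRF1, had a ratio of 0.18 (interval 0.06 to 0.30), and Ngly1 had 0.05 (interval -0.16 to 0.25). Of 11 ubiquitin genes, receptors and deubiquitinases compared, 4 were above 0 and 7 below, with a median of -0.10, and 0 were past 0.5, beside 31.4% of all genes and 4.33% of those with at least 500 counts, a number that all of them but Ubqln2 reached. Ubb, a polyubiquitin gene, had 270.4 and 261.9 CPM and a ratio of 0.05 (interval -0.02 to 0.11). Usp14 and Uchl5, the deubiquitinases that bind the proteasome, had ratios of 0.20 (interval 0.02 to 0.37) and -0.31 (interval -0.55 to -0.08).

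Antigen presentation genes, which work with the immunoproteasome, had 5 of 10 above 0 and a median of -0.01. Tap1, the peptide transporter whose exons overlap those of Psmb9 on the opposite strand, had 9 counts in FLExDUX4 mice and 49 in WT mice, and a ratio of -1.87 (interval -3.14 to -0.89). Nlrc5, the activator of class I genes, had 11 and 8 counts and a ratio of 0.95 (interval -0.47 to 2.49). These 2 genes, with few counts, were the ones of the list past 0.5, 1 in each direction, beside 15.7% of all genes in each. QuantSeq reads keep their strand, but the strand setting of the authors' counting is not given in the sources used here, so the reads of Psmb9 and Tap1 may not be fully separate. Exons of Psmb7, Psmc3, Psmd1, Psmd13, Psme1 and Psmc3ip likewise overlap those of a counted gene on the opposite strand. Tap2 had 63 and 119 counts and a ratio of -0.40 (interval -0.87 to 0.05), and B2m, the light chain of class I molecules, had 190.0 and 178.2 CPM and a ratio of 0.09 (interval 0.02 to 0.17). H2-D1, a class I heavy chain, had 608 and 748 counts and a ratio of 0.22 (interval 0.06 to 0.37). Irf1, a transcription factor of the interferon response, had a ratio of -0.02 (interval -0.32 to 0.27).

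Leukocyte markers were at a summed level of 81.4 CPM in FLExDUX4 mice and 77.9 CPM in WT mice, a log2 ratio of 0.06 (interval -0.05 to 0.18). Of the 8 markers, 6 had enough counts to be compared, 3 were above 0, Cd3e had 3 and 0 counts, and Cd79a had 0 counts in both genotypes. The markers did not all lie on the same side of 0. The macrophage markers Cd68, with 23 and 52 counts, and Adgre1, with 24 and 55, had ratios of -0.64 (interval -1.44 to 0.07) and -0.66 (interval -1.44 to 0.04). A ratio at or below -0.5 was reached by 15.7% of all genes. The myeloid markers Csf1r, with 201 and 285 counts, and Lyz2, with 514 and 747, had ratios of 0.01 (interval -0.26 to 0.28) and -0.02 (interval -0.19 to 0.14). Ptprc, the common leukocyte antigen, had 66 and 70 counts and a ratio of 0.43 (interval -0.08 to 0.94). Cd74, the class II invariant chain, had 228 and 236 counts and a ratio of 0.47 (interval 0.20 to 0.74). Endothelial markers, 5 of 5 of which were compared, were at a summed level of 160.8 CPM in FLExDUX4 mice and 188.2 CPM in WT mice, a ratio of -0.23 (interval -0.31 to -0.15), with 4 of 5 below 0. The median of their single ratios was -0.44, with Tek (-0.63) and Kdr (-0.56) past -0.5, Emcn at -0.44, and Cdh5 (-0.03) and Pecam1 (0.06) near 0. Past -0.5 were 15.7% of all genes, and 78 of the 4577 genes with at least 500 counts, a number that Kdr reached. The part of leukocytes and endothelial cells in the values of Psmb8 and Psme2 was not tested.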

How the data were processed

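Muscle RNA of 3 FLExDUX4 and 3 WT male mice was sequenced by QuantSeq. According to the labels and methods, the authors trimmed reads with Cutadapt 1.16 and aligned them with STAR 2.5.3a to GRCm38 joined to spike-in (ERCC, SIRV) sequences, and the labels name featureCounts 1.6.2. The deposited values used here are raw counts per gene, summed by the authors over each genotype. The deposited table also holds 6 columns of counts per sample whose names match no label, and neither these nor the columns of the authors' own comparison (mean, fold change, p-values) were used.

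edgeR 4.0.16 (R 4.3.3) gave the TMM factors of both totals, from 13396 genes that filterByExpr retained. A pseudocount of 0.5 entered each log2 ratio. The 95% Clopper-Pearson intervals were computed in Python 3.11.15 with scipy 1.17.1 and cover counting error only. They were tried on simulated Poisson counts without variation between mice, which cannot show how they cover sums over real mice. No test was run, since 1 total per genotype was used. Called means a log2 ratio at or beyond 0.5. Named genes are all members, grouped by role, and genes of lists for assembly, ubiquitin, regulators, antigen presentation and cell type markers. Members and lists were chosen with earlier results of these data known, and the promoter motifs after the values were seen. Gene coordinates are from GENCODE M21 (GRCm38) where the start equals the deposited one. Promoters are RefSeq windows matched by symbol for 39 of 46 members, and windows mostly within annotated exons were not printed.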

Additional observations from a re-analysis of the deposited data

How the results depend on the processing

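No paired analysis was possible because each genotype was used as 1 summed total, and so no replicate could be left out either. RLE, upper quartile, a pseudocount of 1, added pseudogene counts and a minimum of 10 counts in each total left every member's ratio within its counting interval, as did gene totals and no filter. The 21 members above 0 became 1 with spike-in totals, which left 3376 of the 13396 genes compared above 0. Of the 4577 genes with at least 500 counts, 492 stayed above 0. The members past 0.5 went from 3 to 5, with Psmd9 and Psmc3ip added, and the matching share of all genes was not computed. With spike-in totals the median ratio was -0.291 over members, -0.261 over the core and -0.258 over the regulatory particle, and that of all genes was -0.277. With gene totals these medians were -0.045, -0.015 and -0.012. With at least 500 counts over both genotypes, chosen after seeing the data, 1 member was past 0.5 and the median was 0.020, since fewer genes were compared. Spike-in totals changed the sign of 10 members whose interval excluded 0: Psmd4 (-0.149), Psma2 (-0.126), Psmd11 (-0.057), Psmd6 (-0.152), Psmb5 (-0.011), Psmd14 (-0.014), Psmd8 (-0.109), Psma1 (-0.0076), Psmd7 (-0.147) and Psmb3 (-0.086). These changes of sign follow from the same downward shift of every ratio, and why the scalings differ was not tested. Without Psma7 and Psmc3, the genes with the most counts in the core and in the regulatory particle, the core share was 37.2% in FLExDUX4 mice and 37.5% in WT mice. Without the pair of Psmb6 and Psmb9 the inducible share was 11.5% and 14.7%. For genes under 100 counts, such as Psmb8, depth limits the precision.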
